A study of Mus musculus with 38 samples.

Results

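The histone cluster genes of the mouse were examined in poly(A)-selected RNA. Members were the genes whose symbols begin with Hist1h, Hist2h, Hist3h or Hist4h, or with H1f, H2ac, H2bc, H3c or H4c. Of 74 such symbols, 3 pseudogenes were left out, which gave 71 members among the 55487 genes counted. They comprised 10 linker histone genes (Hist1h1a to Hist1h1e, Hist1h1t, H1f0, H1fx, H1foo and H1fnt) and 61 core histone genes, namely 18 of H2A, 18 of H2B, 12 of H3 and 13 of H4. The cluster on chromosome 13 held 54 of the 71.

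Core histones form the octamer around which DNA is wrapped, and linker histones bind where DNA enters and leaves that particle. Most histone mRNAs are made during S phase, when new chromatin is assembled, and end in a conserved stem-loop in place of a poly(A) tail. A poly(A) library therefore holds only the tailed part of the histone mRNA pool, such as transcripts that run past the stem-loop to a poly(A) signal. H1f0 and H1fx differ from this pattern: their mRNAs are polyadenylated, and H1f0 is known for its rise in cells that leave the cell cycle.

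The study compared 3 kinds of mouse cells: the glioma line GL261, the microglial line BV2 and bone marrow-derived macrophages (BMDM), which are primary cells of wild-type genotype. Exposure lasted 16 h, with oxygen at 21% in the normoxic arm and under 0.1% in the hypoxic arm. BV2 and BMDM were each cultured alone or together with GL261, which was seeded at a ratio of 2 to 1 over BV2 and of 1 to 1 with BMDM, and GL261 was also profiled on its own. In a separate experiment BV2 cells and BMDM were cultured alone with the vehicle DMSO in normoxia or hypoxia, or with the histone deacetylase inhibitor panobinostat at 10 nM, in hypoxia only. No library held panobinostat in normoxia, so the drug could not be compared across oxygen levels. The GL261 cells stably carried the vector pEGFP-N1. All cells were fixed with 3% glyoxal before RNA was taken. There were 38 libraries in 18 groups, with 2 libraries per group except for the BMDM co-cultures, which had 3. The labels state biological replicates for the first BV2 and GL261 experiment. For the other libraries they do not say that cultures or animals were separate, so p-values there measure the spread between these samples, which may be technical.

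Libraries held 9634700 to 27238933 counts, and 3 counts, the least taken as detection, corresponded to 0.11 to 0.311 CPM, the usual scale of counts relative to library size. Between 44 and 65 members had a count in a library, 29 had a count in all 38, and 3 (Hist2h2aa1, Hist2h3c1 and H1fnt) were at 0 throughout. The summed level of 10 myeloid markers lay between 1702 and 3720 CPM over all BV2 libraries, between 1183 and 27896 CPM in BMDM and between 4.73 and 38.5 CPM in GL261. RNA carried over from the partner was estimated at 0.568% to 2.36% of the reads in co-cultured BV2, 0.207% to 0.915% in co-cultured GL261 and 1.27% to 6.38% in co-cultured BMDM. The BMDM libraries of the panobinostat experiment stood apart: the fibroblast markers Col1a1, Col1a2, Pdgfra and Dcn summed to 2528 to 19509 CPM there, against 59.9 to 542 CPM in the BMDM of the first experiment. In bulk libraries, a change in the number of cells that make a transcript and a change in its amount per cell cannot be told apart.

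The 3′ ends are shown first, because they decide which transcripts can be captured by their poly(A) tails. A histone stem-loop was found in the annotated transcripts (GENCODE M21, GRCm38) of 46 members. The form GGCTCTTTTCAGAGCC occurred in 26 of them and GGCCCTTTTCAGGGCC in 7, mostly of H4. The annotation of 23 members ran at least 100 bases past the stem-loop, 23 ended near it, and 25 had none annotated, among them H1f0, H1fx, Hist1h1b, Hist1h2bc and Hist2h2be. Members on which the results below turn are given here, 5′ to 3′, with the stem-loop in capitals. The first 8 run past it, by 369 bases in Hist1h3e to 4884 bases in Hist1h1d, and the last 4 end near it.
Hist1h1c: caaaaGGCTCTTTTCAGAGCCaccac
Hist1h1d: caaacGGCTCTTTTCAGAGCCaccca
Hist1h1e: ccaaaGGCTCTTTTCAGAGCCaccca
Hist1h2ac: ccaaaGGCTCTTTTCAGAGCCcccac
Hist1h3d: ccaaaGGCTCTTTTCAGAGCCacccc
Hist1h3e: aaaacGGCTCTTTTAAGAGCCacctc
Hist1h4c: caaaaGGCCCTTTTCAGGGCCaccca
Hist2h4: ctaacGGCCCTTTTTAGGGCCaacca
Hist1h3a: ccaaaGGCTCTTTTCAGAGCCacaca
Hist1h3g: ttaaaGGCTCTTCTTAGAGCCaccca
Hist1h4h: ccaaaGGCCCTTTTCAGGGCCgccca
Hist1h4n: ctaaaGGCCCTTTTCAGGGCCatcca

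Most of these genes lie close together and have a single exon. On GRCm38, the linker genes are Hist1h1d at chr13:23553262-23560686, Hist1h1e at chr13:23620629-23622558 and Hist1h1c at chr13:23738808-23740367, with H1f0 apart at chr15:79028450-79030504 and H1fx at chr6:87980421-87981637. The H2A gene Hist1h2ac (chr13:23681467-23683948) and the H2B gene Hist1h2bc (chr13:23684199-23692908) are a divergent pair, read away from each other. The sequence that separates their starts is shown because both genes rose in hypoxia in BV2 and in BMDM grown alone, with the limits given there. It is the 250 bases before the start of Hist1h2ac in RefSeq (GRCm38.p6, minus strand, chr13:23683960-23684209), and the capitals mark an octamer motif, which is bound by the factor Oct1.
Hist1h2ac: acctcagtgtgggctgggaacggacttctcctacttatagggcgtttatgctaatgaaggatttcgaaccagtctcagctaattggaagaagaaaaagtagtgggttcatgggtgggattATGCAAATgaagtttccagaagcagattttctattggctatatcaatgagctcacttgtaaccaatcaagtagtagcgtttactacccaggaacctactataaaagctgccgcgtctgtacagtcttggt

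Promoters of 250 bases before to 50 bases after the start were available from RefSeq for 10 members of H1, 17 of H2A, 16 of H2B, 10 of H3 and 12 of H4. The octamer ATTTGCAT, searched on both strands, was present in 7 of the 17 H2A and 7 of the 16 H2B promoters and in 0 of the H1, H3 and H4 promoters, against 1.74% of 32851 promoters of all genes. The H1 box AAACACA, on either strand, was in 5 of the 10 H1 promoters, in 2 of the H2A and 2 of the H2B promoters, and in 7.18% of all promoters. The CCAAT box was in all 17 H2A, 16 H2B and 10 H3 promoters, in 7 of 10 H1 promoters and in 3 of 12 H4 promoters, against 37.4% of all promoters. These matches describe the letters in the window and were not tested for use.

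Histone genes share coding sequence, which limits how their reads can be assigned. Of the 71 members, 31 shared over 50% of their 75-base words with another gene, and all 31 were core histone genes. Hist2h2aa2, Hist2h2bb and Hist2h3b shared 100% of theirs, Hist1h2ao 93.1%, Hist1h4m 89% and Hist1h4n 83.4%, so values of these genes are uncertain. Some of the members on which results turn share less: Hist2h4 and Hist2h2be 0%, Hist1h1d 1.47%, H1f0 4.49%, Hist1h1c 6.66%, Hist1h2ac 11.1%, Hist1h4c 16.9%, Hist1h4i 22.4%, Hist1h2bc 27.1% and Hist1h1e 28.4%. No H3 gene is among these. The median was 59.0% over the 12 H3 members and 71.5% over the 18 H2A members, with 7 and 12 above 50%. Values of H3 and H2A genes not listed here may therefore be uncertain too. Hist1h1e also overlaps Hist1h2be on the same strand, which accounts for 22.7% of its words, and the 2 cannot be fully separated there.

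A few genes made up most of the polyadenylated histone RNA. Over the 38 libraries pooled, H1f0 gave 36.4% of the members' summed CPM, Hist1h1c 26.7% and Hist1h2bc 11.4%. Per kilobase of exon, H1f0 stood at 163 CPM, Hist1h1c at 157, Hist1h2bc at 90.4 and the H4 gene Hist1h4i at 29.5. The order differed between cells and conditions: in GL261 H1f0 was at 527 to 1057 CPM and Hist1h1c at 4.43 to 9.42 CPM, while in hypoxic BMDM alone Hist1h1c was at 584 and 529 CPM and H1f0 at 175 and 190 CPM. The remaining members were low, and 39 of the 71 had a count in some libraries only.

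**Figure D1:**
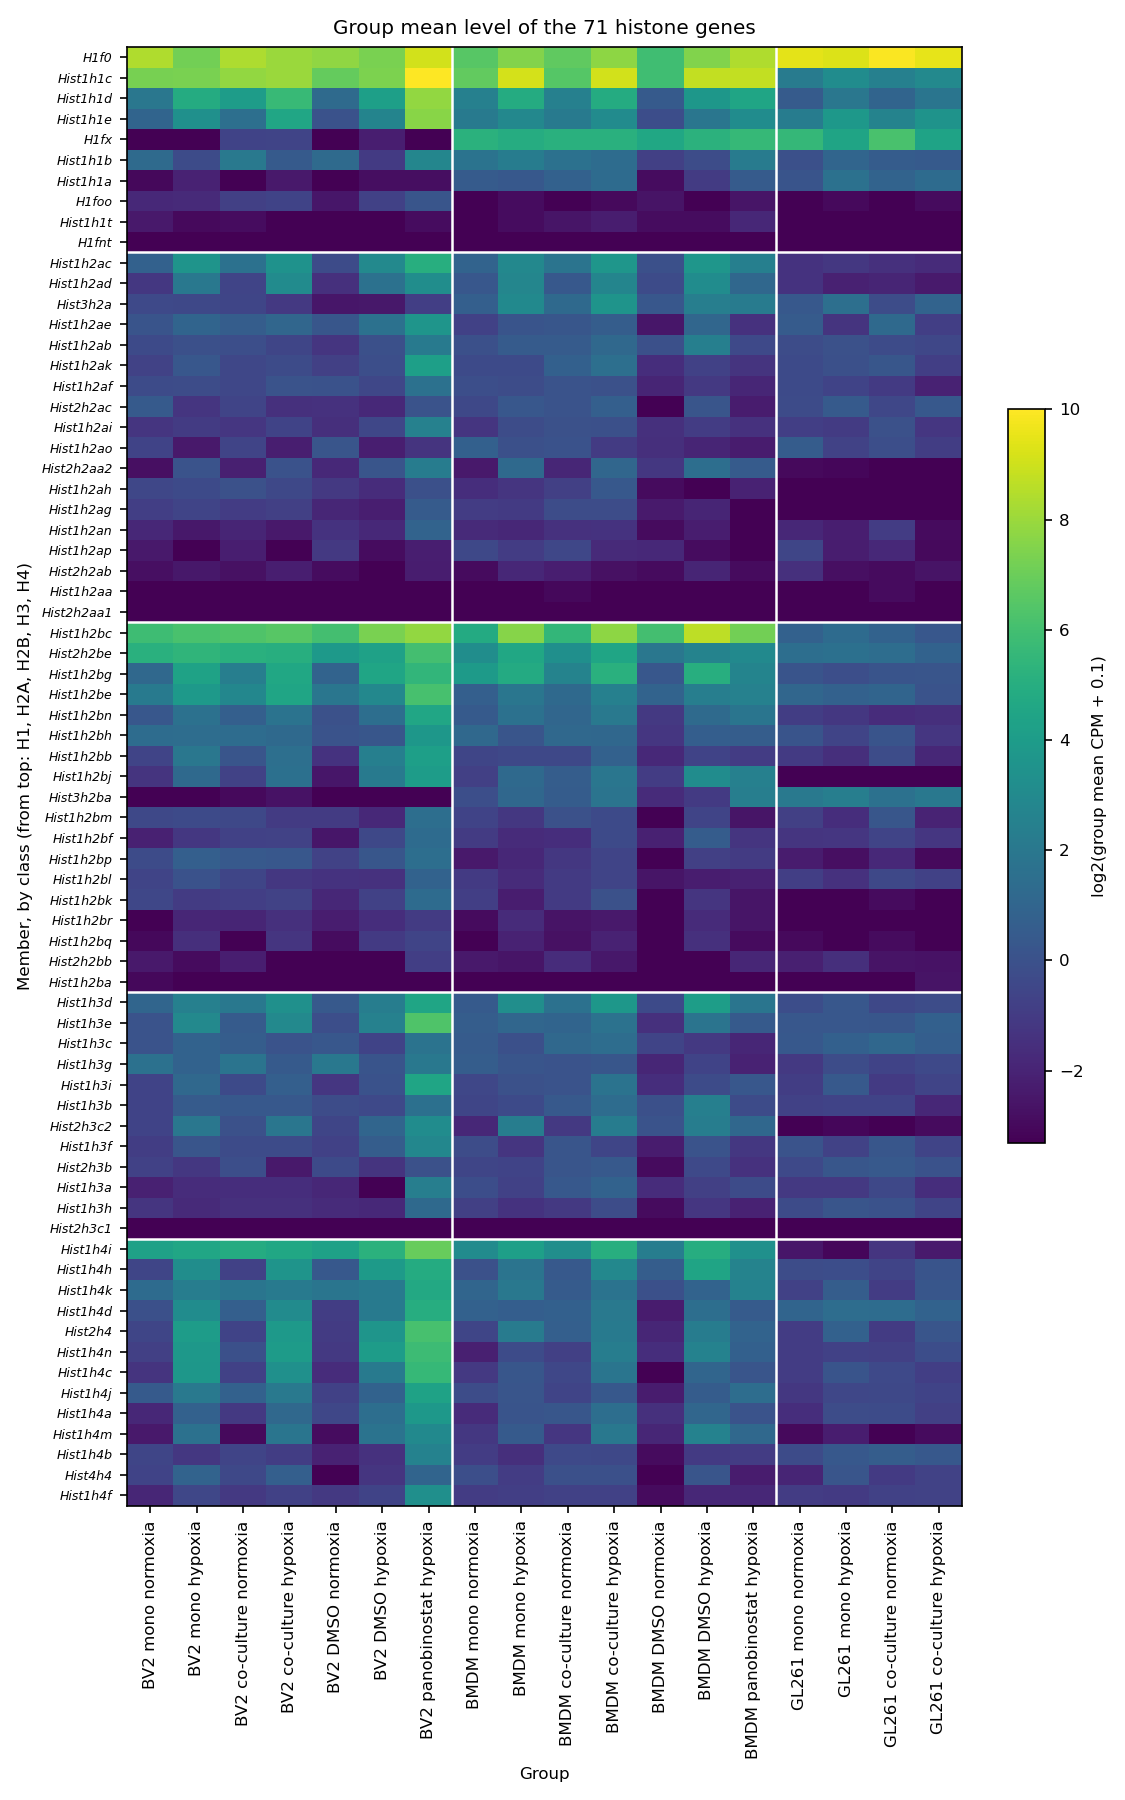
Level of each of the 71 members in each of the 18 groups, as log2 of the group mean CPM plus 0.1, with members ordered by histone class. H1f0, Hist1h1c and Hist1h2bc stand out in BV2 and BMDM, with Hist2h2be and Hist1h4i also among the higher members in BV2. GL261 shows H1f0 and H1fx, H1fx is also seen in BMDM, and 3 members are at 0 in every group.

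The question of the first comparison was how hypoxia changed histone RNA in BV2 cells grown alone. Of 54 members with enough counts, 29 rose and 5 fell (edgeR quasi-likelihood F test, adjusted p under 0.05), with a median log2 change of 1.18 against 0 over all genes tested. Over all 14432 genes, 30.9% rose and 31% fell, so the share of members that fell was below the background and the share that rose above it. By class, 11 of 13 H4 members rose, 6 of 9 H3, 7 of 13 H2B, 3 of 12 H2A and 2 of 7 linker members. The classes also differed in size of change, with a median of 3.22 for H4, 1.29 for H3, 1.07 for H2B, 0.30 for H2A and 0.03 for linker members.

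The linker members of BV2 moved in different directions. H1f0, a linker histone gene outside the clusters, was at 337 and 353 CPM in normoxia and at 129 and 159 CPM in hypoxia. Both hypoxic libraries were below both normoxic ones, and H1f0 fell by 1.26 on the log2 scale (SE 0.21, adjusted p = 5.43e-05). Hist1h1d was at 3.7 and 3.88 CPM in normoxia and at 23.3 and 34.4 CPM in hypoxia, with no overlap, a log2 rise of 2.93 (SE 0.30, adjusted p = 3.80e-07). Hist1h1e rose in the same way, from 2.42 and 1.25 to 8.79 and 11.8 CPM (log2 2.48, SE 0.32, adjusted p = 4.54e-06). Hist1h1b, a linker gene with no stem-loop in its annotation, went from 2.17 and 2.45 to 0.885 and 0.549 CPM and fell by 1.69 (SE 0.36, adjusted p = 0.000628). Hist1h1c, the most abundant cluster linker gene in BV2, stayed at 153 and 152 CPM in normoxia against 163 and 155 CPM in hypoxia (log2 0.06, SE 0.16, adjusted p = 0.763). H1fx was at 0 in all 4 libraries and H1foo at 0.383 CPM or less.

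**Figure D2:**
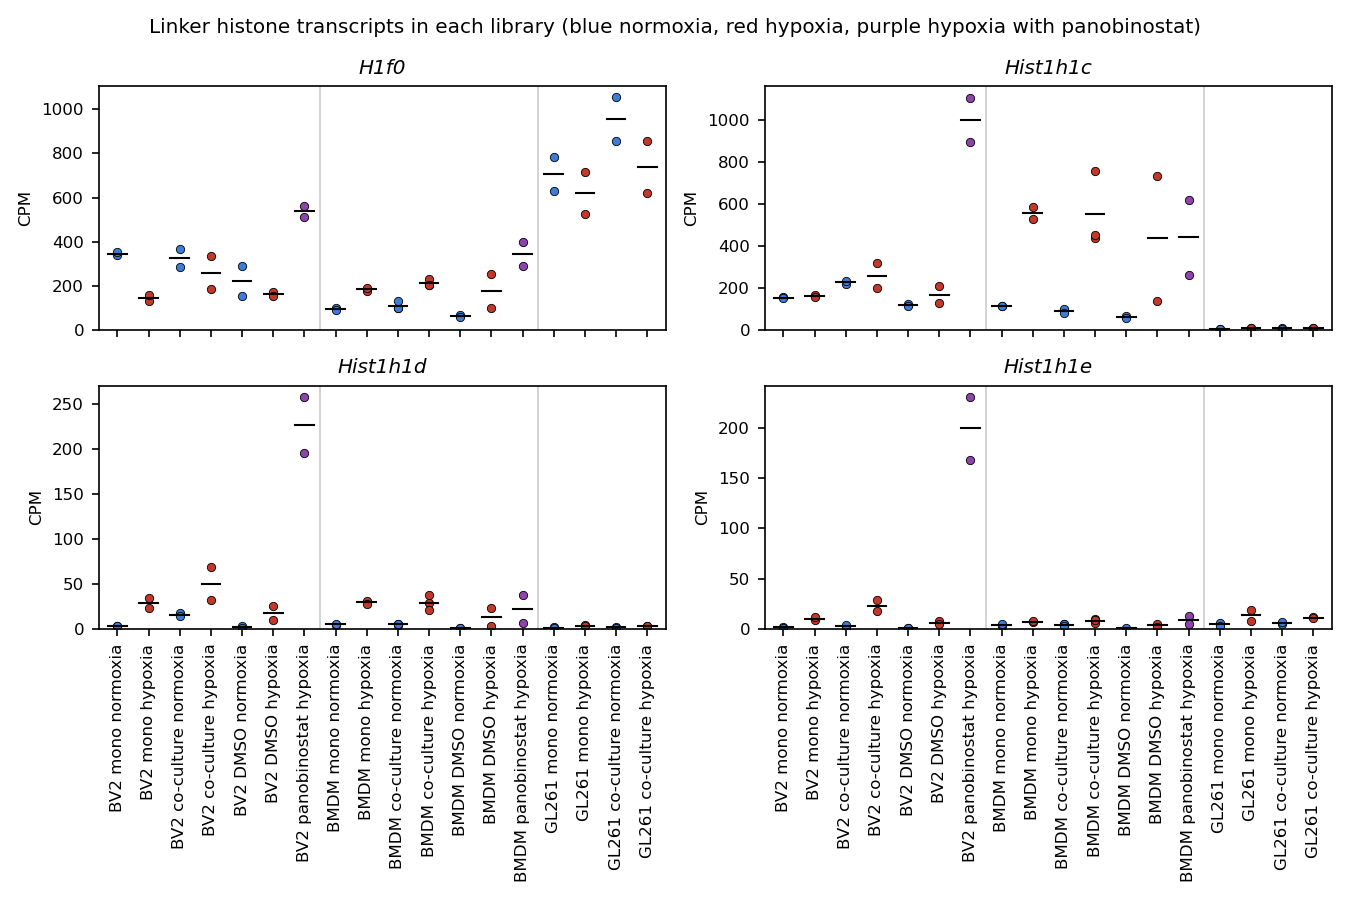
CPM (scaled by TMM, see the section on processing) of H1f0, Hist1h1c, Hist1h1d and Hist1h1e in every library, by group; points are libraries, bars group means, blue normoxia, red hypoxia and purple hypoxia with panobinostat. In BV2 grown alone H1f0 is lower in hypoxia while Hist1h1d and Hist1h1e are higher, and in BV2 all 4 are highest with panobinostat.

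Among the core members of BV2, genes that encode the H4 protein rose most. Hist1h4c, an H4 gene with 454 bases annotated past its stem-loop, was at 0.468 and 0.134 CPM in normoxia and at 12.1 and 14.5 CPM in hypoxia. The libraries did not overlap, and the log2 rise was 5.42 (SE 0.43, adjusted p = 2.34e-08). Hist2h4, an H4 gene that shares no 75-base word with another gene, was at 0.723 and 0.446 CPM against 13.5 and 19.5 CPM, a rise of 4.80 (SE 0.33, adjusted p = 4.68e-09). Hist1h4h, whose annotation ends near its stem-loop, rose from 0.765 and 0.401 to 9.2 and 9.22 CPM (log2 3.96, SE 0.34, adjusted p = 5.16e-08). Each of these genes was low in both normoxic libraries and higher in both hypoxic ones. The uncertain genes Hist1h4m (log2 5.01) and Hist1h4n (log2 4.81) completed the largest rises. Hist1h4i, the most abundant H4 gene, did not pass the test, at 21.8 and 17.5 CPM against 25.1 and 22.2 CPM (log2 0.27, adjusted p = 0.112).

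For H3, Hist1h3e went from 0.978 and 0.98 CPM to 8.14 and 7.14 CPM (log2 2.95, SE 0.36, adjusted p = 2.90e-06), and Hist1h3d from 2.72 and 1.2 CPM to 4.25 and 6.81 CPM (log2 1.49, SE 0.31, adjusted p = 0.000527). Hist1h3g, an H3 gene with 47 bases after its stem-loop, went the other way, from 3.32 and 2.85 to 1.47 and 1.92 CPM, and fell by 0.86 (SE 0.31, adjusted p = 0.0269). Hypoxic and normoxic libraries did not overlap for any of these 3 genes. Of H2A, Hist1h2ac was at 2.04 and 1.25 CPM in normoxia and at 13.6 and 9.99 CPM in hypoxia, a rise of 2.83 (SE 0.24, adjusted p = 5.13e-08). Hist2h2ac, another H2A gene, was low throughout, at 1.66 and 0.891 CPM against 0.295 and 0.329 CPM, and fell by 2.01 (adjusted p = 0.00248), which became 0.0699 without normoxia replicate 1. Of H2B, Hist1h2bg rose from 1.91 and 2.45 to 20.6 and 20.4 CPM (log2 3.23, SE 0.22, adjusted p = 4.12e-09). The abundant H2B genes moved little: Hist1h2bc was at 62 and 54.5 CPM against 74.9 and 67.2 CPM (log2 0.29, adjusted p = 0.0413), a call lost without normoxia replicate 2 (0.286) or hypoxia replicate 1 (0.18), and Hist2h2be did not pass the test (log2 0.24, adjusted p = 0.193).

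**Figure D3:**
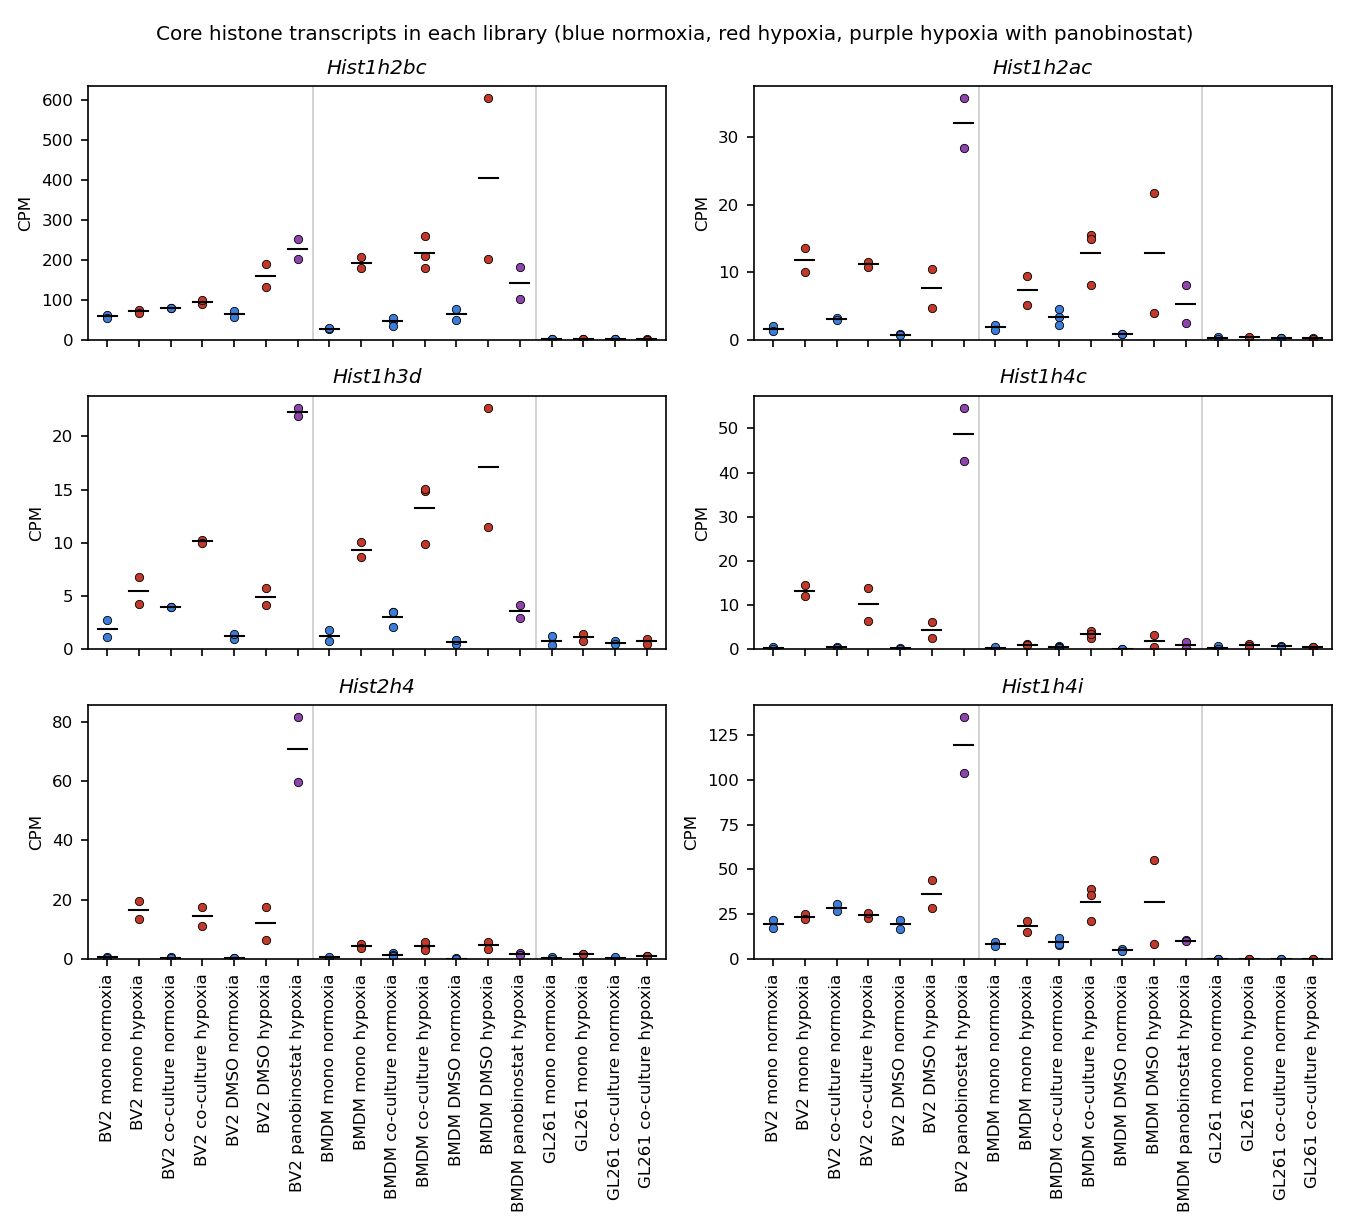
CPM of 6 core histone genes in every library, by group, drawn as for the linker genes: Hist1h2bc (H2B), Hist1h2ac (H2A), Hist1h3d (H3), Hist1h4c, Hist2h4 and Hist1h4i (H4). In BV2, Hist1h4c and Hist2h4 are below 1 CPM in every normoxic library and above 2 CPM in every hypoxic one, and in GL261 alone Hist1h4i has at most 0.153 CPM.

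The BV2 changes were set beside the annotated 3′ ends. Of the core members that ran at least 100 bases past it, 13 of 17 rose and 0 fell, with a median of 1.71. Of those that ended near it, 10 of 20 rose and 3 fell (median 1.18), and of those with none annotated 4 of 10 rose (median 0.48). The difference between these classes was not tested. The rise was not limited to shared sequence: among core members with at most 50% shared words 16 of 26 rose and 2 fell, and among those above 50%, 11 of 21 rose and 1 fell.

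The change was measured in 2 further sets of BV2 libraries. In co-culture, hypoxia raised 23 of 54 members and lowered 4, against 35.2% and 32.1% of all genes, with a median of 0.23 against 0.04. All 23 were among the 29 that rose in BV2 alone, that is 79.3% of those 29. With DMSO, 23 of 54 rose and 3 fell against 17.2% and 20.2% of all genes, with a median of 1.40 against -0.03. In all, 19 members rose in the 3 sets, among them Hist1h1d, Hist1h1e, Hist1h2ac, Hist1h3e, Hist1h4c and Hist2h4, and 3 fell in the 3 sets, namely Hist1h1b, Hist1h2ao and Hist1h3g. The share of all genes that rose or fell in the 3 sets was not counted. Hist1h2ao is an uncertain H2A gene at or below 1.25 CPM in these libraries, and DESeq2 did not call its fall in any set (adjusted p of 0.0557, 0.0771 and 0.0532).

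The levels in these sets were as follows. In co-culture Hist2h4 was at 0.692 and 0.373 CPM in normoxia and at 11.3 and 17.6 CPM in hypoxia (log2 4.79, SE 0.36, adjusted p = 1.18e-08). With DMSO it was at 0.447 and 0.348 CPM against 17.7 and 6.43 CPM (log2 4.89, SE 0.58, adjusted p = 0.000373). In neither set did oxygen groups overlap for Hist2h4. Hist1h1b, the linker gene that fell, was at 4.5 and 3.57 against 1.45 and 1.05 CPM in co-culture (fell by 1.68, adjusted p = 0.000209) and at 2.76 and 1.88 against 0.55 and 0.224 CPM with DMSO (fell by 2.56, adjusted p = 0.00628). H1f0 did not pass the test in either set. In co-culture it was at 282 and 365 CPM against 184 and 334 CPM, and with DMSO at 150 and 289 CPM against 171 and 152 CPM, with overlapping groups both times.

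**Figure D4:**
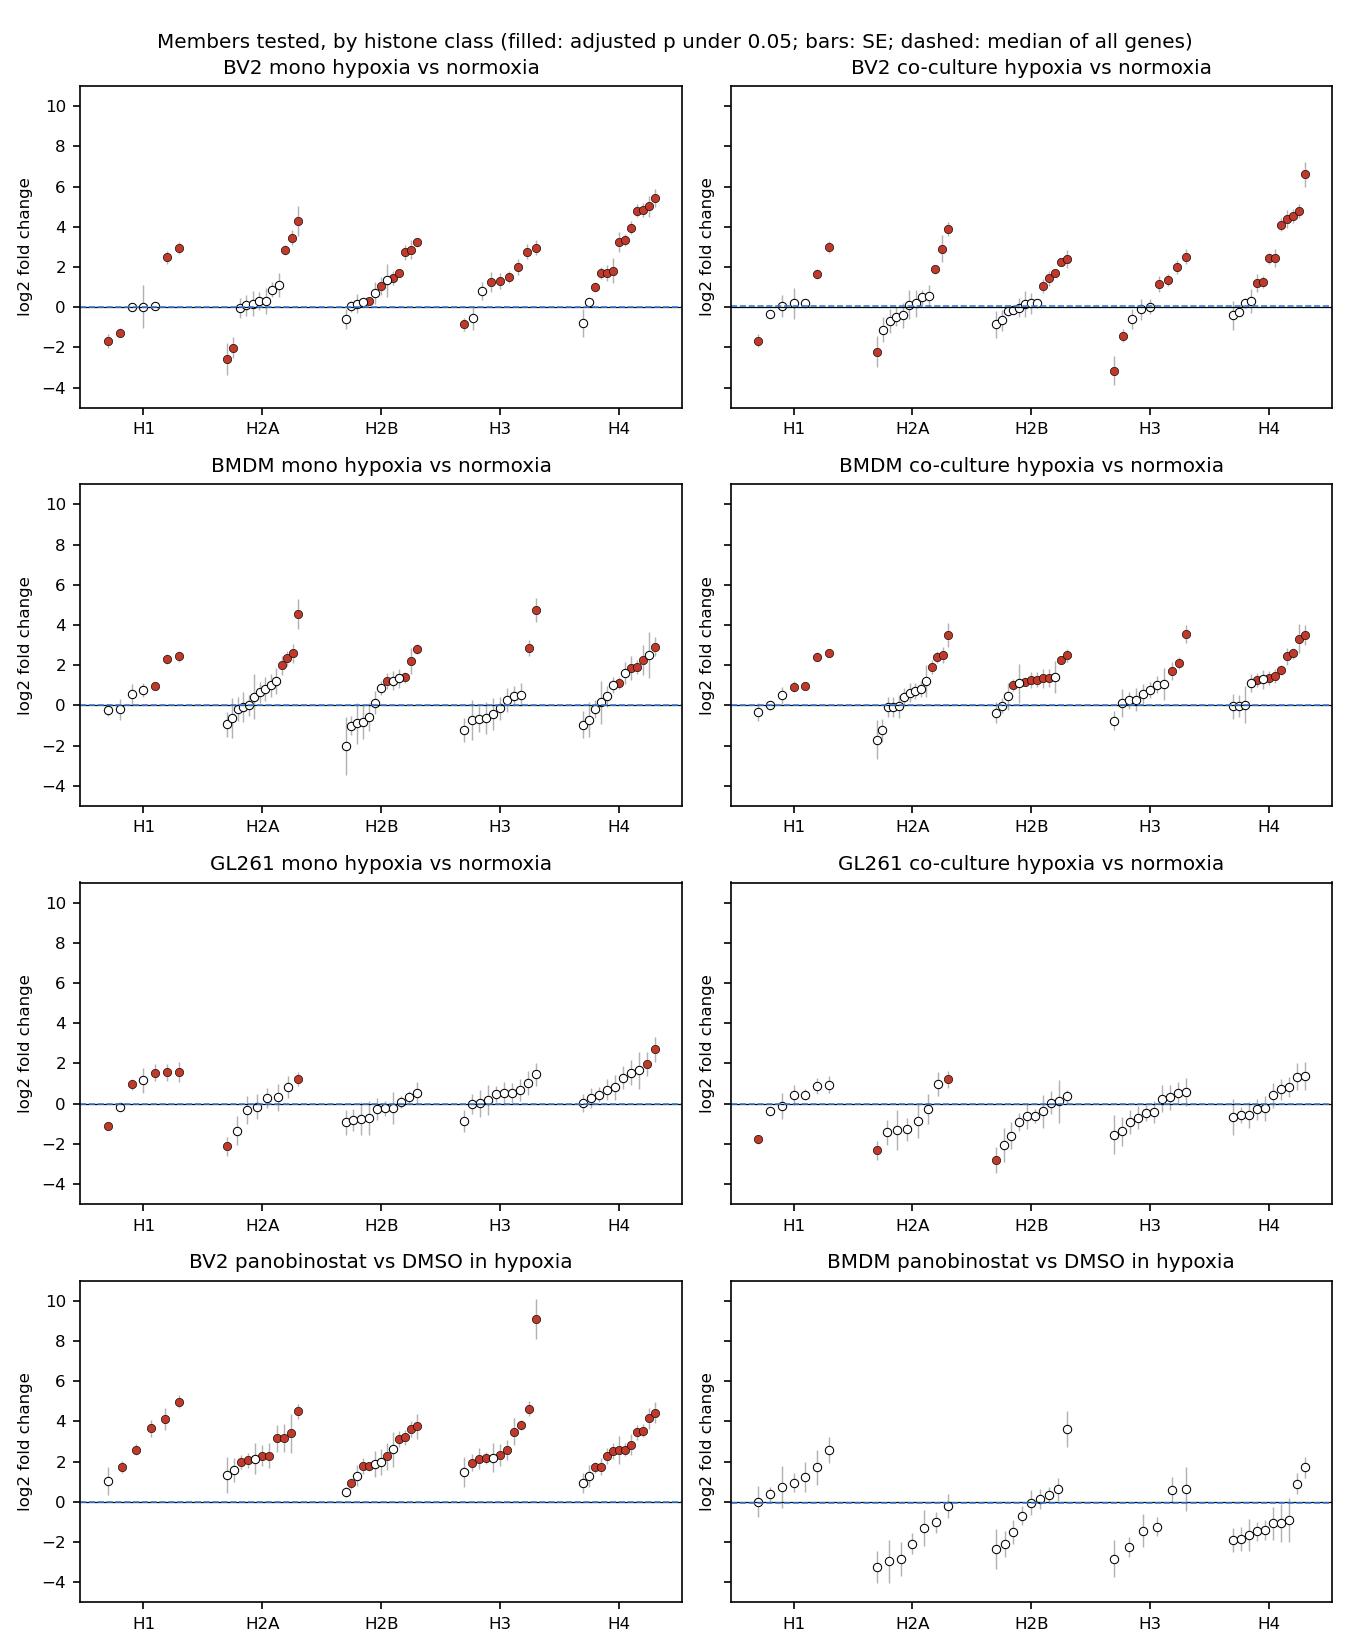
Log2 fold change of each tested member, by histone class, for hypoxia against normoxia in BV2, BMDM and GL261 alone and in co-culture, and for panobinostat against DMSO in hypoxic BV2 and BMDM; bars are standard errors, filled points have an adjusted p under 0.05 and the dashed line is the median of all genes. H4 members lie highest in BV2 hypoxia, all 54 tested members are above 0 with panobinostat in BV2, and the topmost point there, Hist1h3a, is a fitted value against a group at 0.

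Genes that accompany histone supply in dividing cells moved the other way in BV2. Of 25 genes of S phase and cell division, 0 rose and 24 fell in hypoxia alone (median -1.38), 25 fell in co-culture (median -1.56) and 19 fell with DMSO (median -1.60). Over all genes, 31%, 32.1% and 20.2% fell in these sets. Mki67, a marker of cycling cells, was at 677 and 828 CPM in normoxia and at 356 and 343 CPM in hypoxia and fell by 1.10 (adjusted p = 8.86e-05). Of 18 genes of histone 3′ end processing, 0 rose and 14 fell in BV2 alone (median -0.96). Slbp, the protein that binds the histone stem-loop, was at 107 and 97.8 CPM against 83.7 and 71.8 CPM and fell by 0.40 (adjusted p = 0.0151). Casp8ap2, a component of the histone locus body, fell by 1.09 (adjusted p = 2.49e-05), and Npat, which activates histone genes in S phase, did not pass the test (log2 -0.23, adjusted p = 0.12). Of 13 polyadenylation genes 9 fell and 0 rose, of 19 histone chaperones 14 fell and 3 rose, and of 10 RNA decay genes 7 fell and 3 rose. All 8 tested replication-independent core variants, such as H2afz, fell (median -0.93). How these changes bear on the members was not tested.

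Hypoxia also raised histone RNA in BMDM, in both linker and core genes. In BMDM alone, 18 of 58 tested members rose and 0 fell, against 13.3% and 10.6% of all genes, and the median was 0.61 against 0.03. In co-culture, 27 of 58 rose and 0 fell, against 17.5% and 17.3% of all genes, with a median of 1.09 against 0.03. Of the 18 members, 17 also rose in co-culture, which is 63.0% of those 27, and the like overlap over all genes was not counted. Scaling by total counts alone in place of TMM lowered every log2 change in BMDM alone by 0.26, for all genes alike.

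Hist1h1c was the most abundant cluster linker gene in BMDM. It was at 114 and 110 CPM in normoxia and at 584 and 529 CPM in hypoxia, with no overlap (log2 2.31, SE 0.25, adjusted p = 0.000208). In co-culture it was at 93.2, 97.2 and 81.2 CPM against 757, 438 and 451 CPM (log2 2.60, SE 0.21, adjusted p = 1.74e-05). All hypoxic libraries lay above all normoxic ones in both settings. H1f0 rose as well, from 95.8 and 90.5 to 175 and 190 CPM alone (log2 0.97, SE 0.17, adjusted p = 0.00271) and from 98.6, 98.9 and 128 to 203, 229 and 201 CPM in co-culture (log2 0.96, adjusted p = 0.000464). That is the opposite direction to BV2 grown alone, where it fell; the 2 cell types were counted in separate tables and the difference was not tested. Hist1h1d rose from 4.93 and 5.92 to 31.6 and 27.7 CPM (log2 2.45, SE 0.27, adjusted p = 0.000208). H1fx, at 39.9 and 31.9 CPM in normoxia and 29.9 and 31.3 CPM in hypoxia, did not pass the test (adjusted p = 0.606).

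The core members of BMDM followed. Hist1h2bc, the H2B gene of the divergent pair, was at 26.5 and 28.8 CPM in normoxia and at 207 and 179 CPM in hypoxia (log2 2.80, SE 0.25, adjusted p = 4.97e-05). Its partner Hist1h2ac went from 2.19 and 1.45 to 9.46 and 5.11 CPM (log2 1.99, SE 0.46, adjusted p = 0.0108), and without normoxia replicate 2 or hypoxia replicate 1 the adjusted p was 0.0981 or 0.0959. Neither gene of the pair had overlapping groups in BMDM alone. In co-culture Hist1h2bc was at 47.6, 55.5 and 34.2 against 260, 210 and 180 CPM (log2 2.24, adjusted p = 2.86e-05) and Hist1h2ac at 3.4, 4.49 and 2.12 against 15.5, 8.04 and 14.8 CPM (log2 1.91, adjusted p = 0.00219). Hist2h3c2, an H3 gene, showed the largest rise in BMDM alone, from 0.164 and 0.189 to 5.46 and 4.42 CPM (log2 4.74, SE 0.60, adjusted p = 0.000508). Hist2h4 rose from 0.493 and 0.693 to 5.16 and 3.87 CPM (log2 2.92, adjusted p = 0.00168), again with no overlap. Hist1h4i rose less and less firmly, from 9.58 and 7.24 to 21.1 and 15.3 CPM (log2 1.11, adjusted p = 0.0277), with an adjusted p of 0.055 to 0.208 when any library was left out. The count of 18 became 11 without normoxia replicate 2 or hypoxia replicate 1.

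Among core members with at least 100 bases past the stem-loop, 7 of 18 rose in BMDM alone (median 1.17), against 5 of 21 that ended near it (median 0.13) and 3 of 12 with none annotated (median 0.48). In BMDM, 0 of 25 genes of S phase and cell division rose and 23 fell alone (median -1.28), and 25 fell in co-culture (median -1.42). Over all genes, 10.6% fell alone and 17.3% in co-culture. Mki67 fell by 0.98 (adjusted p = 0.0402) and Slbp by 0.76 (adjusted p = 0.00999) in BMDM alone. Of 18 genes of 3′ end processing, 10 fell and 0 rose. Of the chaperones 9 of 19 fell and 1 rose, of polyadenylation genes 3 of 13 fell and 1 rose, and 3 each of 10 decay genes and 9 core variants fell. The part of these changes in the members' rise was not tested.

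In all, 9 members rose in hypoxia in the 3 sets of BV2 and in both first-experiment sets of BMDM. These were the linker gene Hist1h1d, the H2A genes Hist1h2ac and Hist1h2ad, the H2B genes Hist1h2bj and Hist1h2bn, the H3 gene Hist1h3d and the H4 genes Hist1h4h, Hist1h4m and Hist2h4. Hist1h4m is one of the uncertain genes named earlier. Over all genes, 30.9%, 35.2% and 17.2% rose in the BV2 sets and 13.3% and 17.5% in the BMDM sets. Of the 29 that rose in BV2 alone and the 18 that rose in BMDM alone, 13 were shared, 44.8% and 72.2% of each list. The share of all genes that rose together in these sets was not counted, so whether either overlap is particular to the members was not tested.

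In the panobinostat experiment, vehicle-treated BMDM showed the same direction with a wide spread. Of 39 tested members, 3 rose and 0 fell in hypoxia, against 0.469% and 0.0134% of all genes. The log2 change was positive for all 39, and the median was 2.87 against -0.01. At an unadjusted p under 0.05 there were 32 members, against 3786 of all 14914 genes. DESeq2 called 24 members, and its share over all genes is not given here. Hist1h3d was at 0.512 and 0.882 CPM in normoxia and at 22.7 and 11.5 CPM in hypoxia (log2 4.59, SE 0.57, adjusted p = 0.0474), and Hist1h2bj and Hist1h4m were the others called. Without a normoxia library or hypoxia replicate 1 the count was 0, and without hypoxia replicate 2 it was 14. Hist1h1c, not called, was at 64.4 and 56.5 CPM in normoxia and at 730 and 138 CPM in hypoxia (adjusted p = 0.118).

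The hypoxic replicates of that set differed in other ways too. Fibroblast markers summed to 2528 CPM in hypoxia replicate 1, which had the higher Hist1h1c, and to 13183 CPM in replicate 2, against 19509 and 19073 CPM in normoxia. Myeloid markers summed to 3578 and 10872 CPM in hypoxia against 27896 and 18607 CPM in normoxia. All 4 fibroblast and all 10 myeloid markers were detected in each of these groups. Their part in the histone values was not tested.

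Few members were called in GL261. In GL261 alone, 7 of 45 tested members rose and 2 fell in hypoxia, against 23.2% and 21.4% of all genes, with a median of 0.33 against -0.03. In co-culture 1 rose and 3 fell, against 26.8% and 25.6%, with a median of -0.37 against -0.04. All 4 shares lay below the background. The core members were low here, with 459 to 1246 counts in all per GL261 library, against 2891 to 6567 in BV2 of the first experiment. Changes of core members were therefore harder to detect in GL261. The count in GL261 alone was 4 without normoxia replicate 2 and 14 without normoxia replicate 1.

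H1fx, a linker histone gene outside the clusters, fell in both settings. It was at 43.2 and 51.5 CPM in normoxia and at 16.6 and 27.4 CPM in hypoxia alone (fell by 1.12, SE 0.21, adjusted p = 0.00128), and at 67.5 and 77.4 against 22.3 and 20.1 CPM in co-culture (fell by 1.78, SE 0.21, adjusted p = 4.33e-05). No library of one oxygen level overlapped the other. H1f0, the most abundant member in GL261, was at 630 and 782 CPM against 527 and 715 CPM and did not pass the test (adjusted p = 0.489). In GL261 alone 4 of the 5 tested cluster linker genes rose, and Hist1h1b did not pass (log2 1.17, adjusted p = 0.145). Of those that rose, Hist1h1c went from 4.55 and 4.43 to 8.17 and 9.42 CPM (log2 0.97, SE 0.27, adjusted p = 0.0127) and Hist1h1e from 6.5 and 3.04 to 19.3 and 8.3 CPM (log2 1.54, adjusted p = 0.00987). Neither call held in each subset of libraries. For Hist1h1c the adjusted p was 0.0584 without normoxia replicate 1 and 0.0538 without replicate 2, and for Hist1h1e it was 0.0795 without normoxia replicate 2 and 0.11 without hypoxia replicate 1. Among core members Hist4h4, an H4 gene outside the large clusters, showed the largest rise, from 0.205 and 0.107 to 1.37 and 0.696 CPM (log2 2.70, adjusted p = 0.00414), with an adjusted p of 0.051 without hypoxia replicate 1.

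The cycling genes of GL261 moved in both directions. Of 25 genes of S phase and cell division, 5 rose and 7 fell in GL261 alone, with a median of 0.04, and 4 rose and 9 fell in co-culture. Over all genes, 23.2% rose and 21.4% fell in GL261 alone, and 26.8% and 25.6% in co-culture, so these counts were near the background. Mki67 rose from 815 and 932 to 1700 and 1176 CPM (log2 0.72, adjusted p = 0.0101). Npat rose by 0.78 (adjusted p = 0.000567) and Casp8ap2 by 0.93 (adjusted p = 0.000784). Of 18 genes of 3′ end processing 4 rose and 4 fell, of 13 polyadenylation genes 7 rose and 1 fell, of 10 decay genes 7 rose and 1 fell, of 19 chaperones 6 rose and 5 fell, and of 9 core variants 1 rose and 6 fell.

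Whether the hypoxic change differed between BV2 and GL261 grown alone was tested with an interaction term. Of 59 members, the change was more positive in BV2 for 14 and more negative for 4, against 18.7% of all genes in each direction. The 14 were 5 genes of H4, 3 of H2A, 3 of H2B, 2 of H3 and 1 linker gene, and the 4 were H1f0, Hist1h1b, Hist2h2ac and Hist1h3g. For the H4 gene Hist1h4h the difference was 4.01 (SE 0.59, adjusted p = 3.04e-05) and for the H2A gene Hist1h2ad 4.61 (SE 0.79, adjusted p = 0.000155). For Hist1h1c it was -0.80 and did not pass (adjusted p = 0.0501).

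The cell lines also differed in which members they expressed in normoxia. On the joint scale of both lines, H1fx was at 39.7 and 47.5 CPM in GL261 and at 0 in both BV2 libraries, at least 320-fold higher in GL261 when 3 counts per library are taken as the floor. The H2B gene Hist3h2ba was at 4.33 and 3.05 CPM in GL261 and at 0 in BV2, at least 27.1-fold higher. Hist1h1c was the reverse, at 4.18 and 4.08 CPM in GL261 and 153 and 152 CPM in BV2 (log2 5.20 higher in BV2, SE 0.24, adjusted p = 6.13e-13). Hist1h2bc (log2 5.24) and Hist2h2be (log2 3.83) were also higher in BV2, and H1f0 was lower by 0.92, at 336 and 353 CPM against 578 and 721 CPM in GL261. Over 59 members, 23 were higher and 6 lower in BV2, against 33.8% and 39.4% of all genes. In the panobinostat experiment H1fx was at 21.5 and 31.2 CPM in BMDM with DMSO and at 0 in BV2, at least 113-fold higher in BMDM. There, 12 of 58 members were higher and 2 lower in BV2 than in BMDM, against 17.1% and 27.1% of all genes, and these 14 became 8 without either BMDM library and 9 without either BV2 library.

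A stretch of the chromosome 13 cluster was nearly without counts in GL261. Hist1h2ah, Hist1h2bk, Hist1h4i, Hist1h2ag and Hist1h2bj lie next to each other over 8513 bases (chr13:22035164-22043676). In the 4 GL261 libraries grown alone, 4 of these genes had 0 counts, and Hist1h4i had 4 counts in all, with 2 of the 4 libraries at 0. In the 14 BV2 libraries Hist1h4i ranged from 16.8 to 135 CPM. The other 4 genes also had low levels in some BV2 libraries, ranging from 0.0786 to 1.38 CPM for Hist1h2ah, 0.139 to 2.81 CPM for Hist1h2bk, 0 to 1.69 CPM for Hist1h2ag and 0.0696 to 20.7 CPM for Hist1h2bj, and shared 50.4% to 91.5% of their words with other genes. Against the floor of 3 counts, their mean levels in normoxic BV2 alone were at least 1.76-fold (Hist1h2bj) to 3.57-fold (Hist1h2bk) higher than in GL261. For Hist1h2bj the bound rests on normoxia replicate 1, since replicate 2, at 0.0891 CPM, was below its own floor of 0.136 CPM. Nearby, the zinc finger gene Zfp184 averaged 5.95 CPM in GL261 and 1.75 CPM in BV2 grown alone, and the protease gene Prss16 0.0619 and 2.57 CPM.

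Co-culture with GL261 changed fewer members than oxygen. In normoxic BV2, 9 of 54 members rose and 0 fell, against 5.77% and 9.14% of all genes, and the count was 2 without monoculture replicate 2. In hypoxic BV2, 9 rose and 0 fell, against 8.13% and 7.57%, and the count was 2 without monoculture replicate 1. The median change was 0.55 in normoxia and -0.03 in hypoxia.

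Hist1h1d rose most among the cluster genes in normoxic co-culture. It was at 3.7 and 3.88 CPM in BV2 alone and at 17.5 and 14.8 CPM in co-culture, with no overlap (log2 2.08, SE 0.31, adjusted p = 0.000619), and GL261 itself held 1.89 and 0.694 CPM. Hist1h2bg rose from 1.91 and 2.45 to 4.91 and 5.33 CPM (log2 1.24, SE 0.25, adjusted p = 0.00481). These values lay above those of GL261 alone, and the call for Hist1h2bg held when any single library was left out. Hist1h2bc rose from 62 and 54.5 to 80.2 and 79.9 CPM (log2 0.46, adjusted p = 0.0153), and Hist1h1c from 153 and 152 to 218 and 232 CPM (log2 0.56, adjusted p = 0.0294). Neither call held when monoculture replicate 2 was left out (adjusted p of 0.202 for Hist1h2bc and 0.156 for Hist1h1c) or when either co-culture library was, and that for Hist1h1c was also lost without monoculture replicate 1 (0.089).

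In the first experiment H1fx had counts in BV2 where GL261 was present. It was at 0 in BV2 alone and at 0.622 and 0.48 CPM in normoxic and 0.557 and 0.583 CPM in hypoxic co-culture, at least 4.05-fold and 3.33-fold higher. From the partner's level and its share of reads, carried-over RNA would give 0.469 and 0.28 CPM in normoxia and 0.457 and 0.524 CPM in hypoxia, on the scale of total counts. H1f0 in hypoxic BV2 was at 129 and 159 CPM alone and at 184 and 334 CPM in co-culture (log2 0.85, SE 0.20, adjusted p = 0.00901), of which the same estimate attributes 12.9 and 14.8 CPM to GL261. Without co-culture replicate 2 the adjusted p was 0.275, without monoculture replicate 1 it was 0.106, and DESeq2 gave 0.0736. Hist1h1e, from 8.79 and 11.8 to 18 and 28.4 CPM (log2 1.17, adjusted p = 0.00494), was the largest rise among cluster linker genes in hypoxia, and it was not called without monoculture replicate 1 (0.0625) or co-culture replicate 2 (0.0992).

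In GL261, co-culture changed 0 of 45 members in normoxia, where 0.514% of all genes changed, and 0 in hypoxia, where 1.39% did. At an unadjusted p under 0.05 there were 2 and 1 members, against 1287 and 2282 of all 15189 genes, and DESeq2 called 0 members in both. In normoxic BMDM 0 of 58 members passed, against 1.64% of all genes. There 8 members had an unadjusted p under 0.05, against 1905 of all 14806 genes, and DESeq2 called 2. In hypoxic BMDM the H2A gene Hist1h2ak and the H4 gene Hist1h4h rose, 2 of 58 against 4.06% of all genes higher and 3.05% lower. Hist1h4h was at 3.86 and 2.9 CPM alone and at 7.73, 7.59 and 7.03 CPM in co-culture (log2 1.14, SE 0.30, adjusted p = 0.0469). The groups did not overlap, but the call was lost when any library was left out, and both calls were lost when genes that GL261 expresses far more were left out (0.0637 for Hist1h2ak and 0.0695 for Hist1h4h).

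The hypoxic change did not pass a test of difference between co-culture and monoculture for any member. Of 54 members in BV2, 45 in GL261 and 58 in BMDM, 0 passed in edgeR, against 2.19%, 0% and 0% of all genes. DESeq2 called 0 in each. At an unadjusted p under 0.05 there were 9, 2 and 3 members, against 2865 of 14432, 1354 of 15189 and 636 of 14806 genes. The smallest adjusted p in BV2 was 0.0898, for H1f0, whose log2 change in hypoxia was 0.94 higher in co-culture (SE 0.29).

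Panobinostat raised histone RNA in hypoxic BV2 across every class. Of 54 members, 41 rose and 0 fell, against 7.21% of all genes higher and 7.39% lower, and all 54 had a positive log2 change. The median was 2.32 against -0.01 for all genes. By class, 5 of 6 linker, 8 of 11 H2A, 8 of 13 H2B, 9 of 11 H3 and 11 of 13 H4 members rose, with medians of 3.13, 2.29, 1.98, 2.33 and 2.57. The count was 23 without panobinostat replicate 1.

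Linker genes showed some of the largest changes. Hist1h1e was at 7.78 and 4.78 CPM with DMSO and at 230 and 168 CPM with panobinostat (log2 4.99, SE 0.32, adjusted p = 0.000178). Hist1h1d went from 25.8 and 10.2 to 258 and 196 CPM (log2 3.66, SE 0.42, adjusted p = 0.00196), and Hist1h1c from 206 and 125 to 1106 and 893 CPM (log2 2.59, SE 0.29, adjusted p = 0.00194). Every treated library lay above both DMSO libraries for these 3 genes. H1f0, outside the clusters, rose from 171 and 152 to 563 and 512 CPM (log2 1.74, SE 0.30, adjusted p = 0.00747). Hist1h1b rose from 0.55 and 0.224 to 5.4 and 8.43 CPM (log2 4.14, SE 0.54, adjusted p = 0.00279). H1foo, the oocyte linker histone gene, was at 0.314 and 0.672 against 1.05 and 1.01 CPM and did not pass (adjusted p = 0.33).

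Among core genes, Hist1h3a, an H3 gene that ends near its stem-loop, was at 0 in both DMSO libraries and at 6.36 and 3.89 CPM with panobinostat, at least 22.7-fold higher. Hist1h3e rose from 5.27 and 6.05 to 79.5 and 81.8 CPM (log2 3.83, SE 0.23, adjusted p = 0.000178) and Hist1h3i, also of H3, from 0.707 and 1.12 to 21.6 and 24.4 CPM (log2 4.63, SE 0.38, adjusted p = 0.000466). The groups did not overlap for any of the 3. The H2A gene Hist1h2ak rose from 0.865 and 0.747 to 21 and 16.1 CPM (log2 4.51, SE 0.37, adjusted p = 0.000466) and the H4 gene Hist2h4 from 17.7 and 6.43 to 81.4 and 59.8 CPM (log2 2.55, SE 0.40, adjusted p = 0.00522). Hist1h2bc, the most abundant H2B gene, went from 190 and 131 to 253 and 202 CPM and did not pass (log2 0.50, adjusted p = 0.189). Its divergent partner Hist1h2ac rose from 10.5 and 4.71 to 35.8 and 28.3 CPM (log2 2.07, SE 0.36, adjusted p = 0.00819).

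The members were split by their annotated 3′ ends here too. Of core members past the stem-loop 15 of 16 rose (median 2.44), of those that ended near it 12 of 20 (median 2.06), and of those with none annotated 9 of 12 (median 2.87). Among core members with at most 50% shared words 22 of 25 rose, and among those above 50%, 14 of 23. The hypoxia and drug comparisons share the hypoxic DMSO libraries, so their values are set side by side only. Hist1h1b, as given above, was lower in hypoxia and higher with the drug, and so was Hist1h3g, at 4.25 and 3.55 CPM in normoxia, 1.1 and 0.897 CPM in hypoxia and 4.43 and 3.39 CPM with panobinostat.

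Cycling genes did not rise with the histone genes. Of 25 genes of S phase and cell division 0 rose and 9 fell with panobinostat (median -1.09), against 7.21% and 7.39% of all genes. Mki67 went from 137 and 290 to 44 and 76.1 CPM and fell by 1.83 (adjusted p = 0.0131), and Slbp from 43.3 and 56.7 to 20.9 and 24.3 CPM and fell by 1.14 (adjusted p = 0.0175). Of 18 genes of 3′ end processing 2 fell and 0 rose, of 19 chaperones 2 fell, of 10 decay genes 1 fell and of 13 polyadenylation genes 0 changed. Of 8 core variants 1 rose and 2 fell.

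In hypoxic BMDM, panobinostat changed 0 of 39 members in edgeR, and 0% of all genes. At an unadjusted p under 0.05, 3 members were higher and 13 lower, against 3868 of all 14914 genes in either direction. DESeq2 called 6, and its share over all genes is not given here. The median was 0.96 for 7 linker members and -1.26 for 32 core members. H1f0 was at 254 and 99.5 CPM with DMSO and at 400 and 290 CPM with panobinostat (log2 0.96, SE 0.47, adjusted p = 0.254), and Hist1h1c at 730 and 138 against 617 and 261 CPM, with overlapping groups. Hist1h3d, at 22.7 and 11.5 against 4.15 and 2.98 CPM, had the smallest adjusted p (log2 -2.26, SE 0.50, adjusted p = 0.0728), and its groups did not overlap. Fibroblast markers summed to 8578 and 13972 CPM and myeloid markers to 1183 and 5231 CPM in the treated libraries, and their part in these values was not tested.

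The drug effect in BV2 was compared with that in BMDM by an interaction term. Of 58 members 0 passed in edgeR, against 0.0251% of all genes. The difference was positive for 55 of them. At an unadjusted p under 0.05 there were 48, of which 47 were more positive in BV2, against 1793 of all 15955 genes. DESeq2 called 16, and its share over all genes is not given here. The smallest adjusted p was that of Hist1h3d, whose change was 4.42 higher in BV2 (SE 0.60, adjusted p = 0.0661), followed by Hist1h2ak (log2 5.20, adjusted p = 0.074).

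The balance of linker and core RNA differed between cells and conditions. In BV2 alone, the core members summed to 167 and 142 CPM in normoxia and 319 and 311 CPM in hypoxia, and the linker members to 499 and 513 against 325 and 361 CPM. The linker sum divided by the core sum was 2.99 and 3.61 in normoxia and 1.02 and 1.16 in hypoxia. In BMDM alone both sums were higher in hypoxia, core going from 105 and 93.5 to 386 and 316 CPM and linker from 262 and 249 to 831 and 794 CPM, and the ratio was 2.5 and 2.67 against 2.16 and 2.51. For the cluster linker genes alone it was 1.21 and 1.36 in normoxia and 1.62 and 1.81 in hypoxia in BMDM, and 0.972 and 1.13 against 0.616 and 0.651 in BV2. In GL261 the ratio lay between 12.2 and 34.4 in all 8 libraries, and at 0.324 to 0.806 for the cluster linker genes alone. With panobinostat the sums in BV2 reached 1330 and 1043 CPM for core and 2164 and 1780 CPM for linker members, and the ratio was 1.63 and 1.71 against 0.899 and 1.08 with DMSO. In BMDM the ratio was 3.82 and 3.36 against 1.17 and 0.817. These sums are descriptions dominated by the few abundant genes and were not tested.

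**Figure D5:**
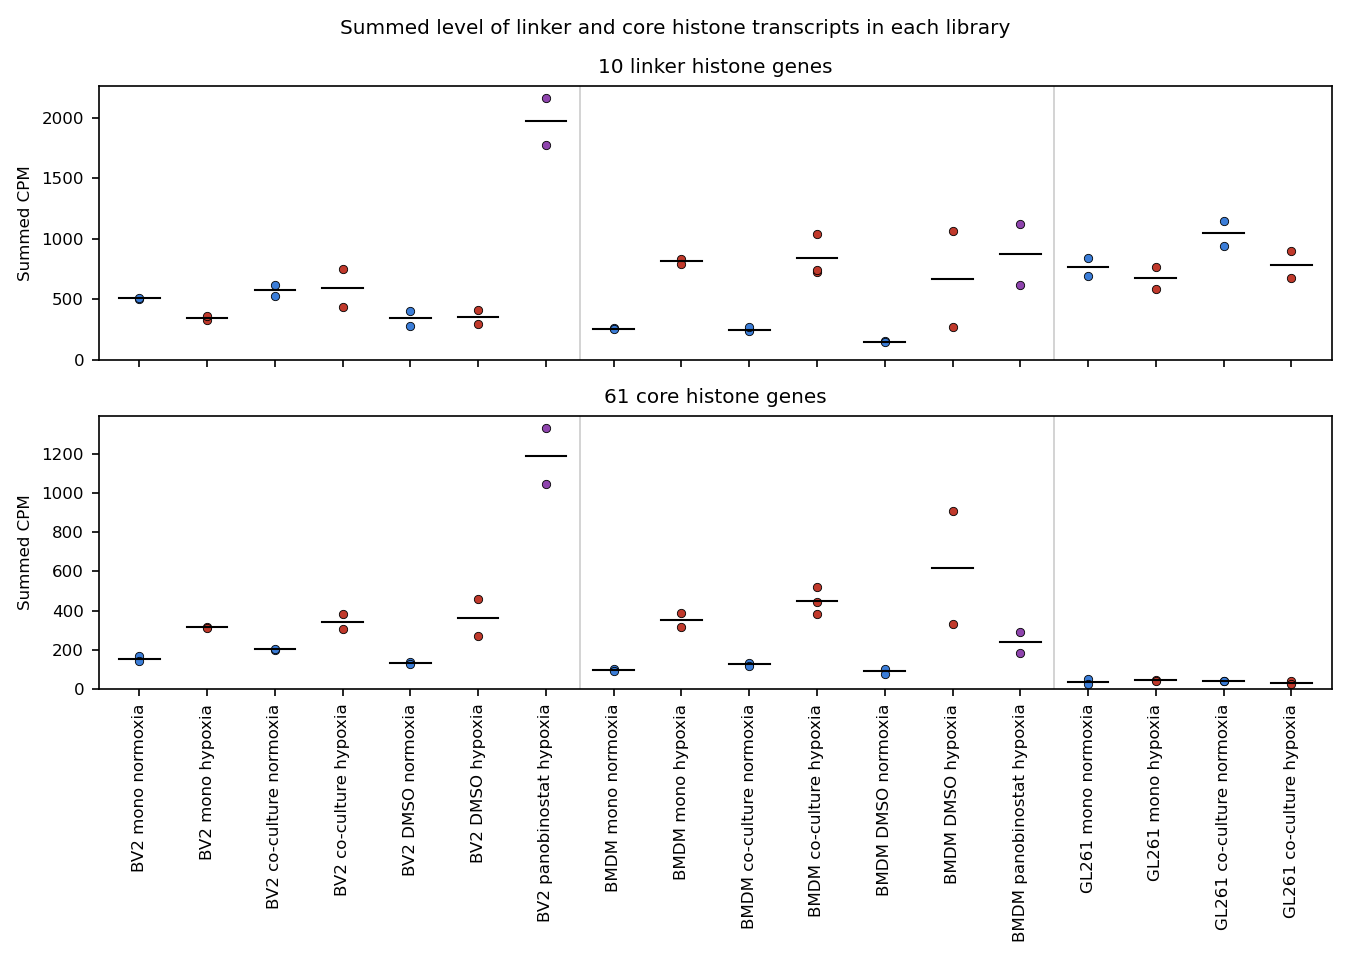
Summed CPM of the 10 linker and the 61 core members in every library, by group; points are libraries and bars group means. In BV2 alone the core sum is higher and the linker sum lower in hypoxia, in BMDM both are higher, and in BV2 with panobinostat both exceed every other BV2 library.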

How the data were processed

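The series measured poly(A)-selected RNA in 38 mouse libraries, and the deposited files are 3 tables of raw counts per gene made by the authors. Per the submitters' processing notes, reads were processed with Trimmomatic 0.36, STAR 2.6, SAMtools, HTSeq 0.9.1 and, for 16 samples, Picard 2.17.1 on mm10. Libraries were stranded with paired reads of 151 bases, per the labels' protocols. The annotation release, the strand setting of the counting and the treatment of reads that map to several genes are not given in the sources used here, and these decide how reads are divided among near-identical histone genes. An ATAC-seq experiment named in the series' design was not analysed here.

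Counts were fitted with edgeR 4.0.16 in R 4.3.3 (TMM scaling, filterByExpr with a minimum count of 10, quasi-likelihood F test), in 5 fits by cell type and experiment, with joint fits for comparisons between cell types. P-values were adjusted by Benjamini-Hochberg over all genes of a fit, with a threshold of 0.05. CPM are TMM-scaled within a fit unless stated otherwise, and standard errors belong to log2 fold changes. The script was tested on simulated counts. Shared sequence was the share of a gene's 75-base words found in transcripts of another gene. Lists of genes (S phase and cell division, 3′ end processing, polyadenylation, chaperones, decay, core variants, and myeloid and fibroblast markers) are described by counts. Lists of 8 GL261, 4 granulocyte and progenitor and 3 lymphoid markers were also summed: GL261 markers gave 1060 to 1782 CPM in GL261, 69.3 to 294 CPM in BV2 and 351 to 1660 CPM in BMDM, granulocyte and progenitor markers at most 36.8 CPM and lymphoid markers at most 0.672 CPM in any library.

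Members and lists were chosen with earlier results of these data known. The genes named are the linker members that passed the filter on low counts, the 3 core members of each class with the highest mean level, the 3 largest rises and falls per comparison and fixed genes of each list. Other names, such as those in lists of shared calls or in the chromosome 13 stretch, were chosen after their values were seen. Alternatives were DESeq2 1.42.0, its size factors, no filter on low counts, the replicate number as a block, each library left out, genes high in the partner left out and unscaled CPM. In BMDM co-cultures same-numbered libraries deviated together (r = 0.455, 0.244 and 0.407), so the numbers were taken to pair them, and the block called the same 27 members as the fit without it.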

Additional observations from a re-analysis of the deposited data

Results flagged for a closer look

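The hypoxic change of 18 of 59 members differed between BV2 and GL261 grown alone by an interaction term (edgeR quasi-likelihood F test, adjusted over all genes). Over all genes, 18.7% passed in each direction, and the share of members that passed in either direction was not above the background. By direction, the share of members was above 18.7% for changes more positive in BV2 and below it for changes more negative in BV2. These differences in share were not tested. Values below are the log2 change in BV2 minus that in GL261. Among linker genes the difference was -0.98 for H1f0 (adjusted p = 0.0259), -2.77 for Hist1h1b (0.00676) and 1.47 for Hist1h1d (0.0496). Of H2A it was 2.70 for Hist1h2ac, 4.61 for Hist1h2ad and -2.73 for Hist2h2ac, and of H2B 3.60 for Hist1h2bg. The H3 gene Hist1h3e differed by 3.09 and Hist1h3g by -1.79 (adjusted p = 0.045), and the H4 genes Hist1h4c by 4.23, Hist1h4n by 4.64 and Hist2h4 by 2.95.

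The call for Hist1h1d was lost when any of 6 of the 8 libraries was left out, and that for Hist1h3g when any of 7 was. Without GL261 normoxia replicate 1 the difference was 0.99 for Hist2h4, 2.82 for Hist1h4c and 1.83 for Hist1h2ac, and none of these 3 passed. The call for H1f0 was lost without BV2 hypoxia replicate 1, GL261 normoxia replicate 1 or GL261 hypoxia replicate 2.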

How the results depend on the processing

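With 2 libraries in most groups and 3 counts at up to 0.311 CPM, low members could be tested only in part. Counts of called members stayed within 1.5 times the reported count in all 23 comparisons with DESeq2 size factors. DESeq2's own test gave 24 members against 3 for hypoxia in vehicle-treated BMDM, 2 against 0 and 8 against 2 for co-culture in normoxic and hypoxic BMDM, 6 against 0 for panobinostat in BMDM, and 16 against 0 for the difference in drug effect between BV2 and BMDM. Without the filter on low counts these 5 became 31, 4, 11, 13 and 37. Without that filter, hypoxia gave 15 in GL261 alone and 11 in co-culture, co-culture gave 1 in normoxic GL261, and the interaction of co-culture and hypoxia gave 4 in BV2 and 1 in BMDM. With genes high in the partner left out, co-culture in hypoxic BMDM gave 0. With unscaled CPM the summed change in BMDM alone was 1.57 for core and 1.41 for linker members, against 1.82 and 1.67. The cause of these shifts was not tested, and the shares of all genes called under these alternatives are not given here.

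With the replicate number as a block, the counts were 8 for hypoxia in co-cultured GL261, 25 for hypoxia in vehicle-treated BMDM, 2 and 5 for co-culture in normoxic and hypoxic BMDM, 7 for panobinostat in BMDM, 2 for the interaction in BV2 and 18 for the difference in drug effect. The other 16 counts stayed within 1.5 times. In groups of 2 libraries same-numbered samples also deviated together. In the panobinostat experiment r was 0.389 for hypoxia and 0.364 for the drug in BV2, and 0.409 and 0.593 in BMDM. Elsewhere it lay between 0.00606 and 0.369. The labels do not say that the numbers pair these samples, so whether the block is the better fit there is open, and counts without it are reported.

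Leaving out 1 library gave the following ranges of called members. For hypoxia they were 28 to 32 in BV2 alone, 24 to 27 in BV2 co-culture, 18 to 30 in BV2 with DMSO, 4 to 14 in GL261 alone, 3 to 6 in GL261 co-culture, 11 to 15 in BMDM alone, 22 to 26 in BMDM co-culture and 0 to 14 in BMDM with DMSO. For co-culture they were 2 to 8 in normoxic BV2, 2 to 9 in hypoxic BV2 and 0 to 4 in hypoxic BMDM. Panobinostat gave 23 to 45 in BV2, the interaction in BV2 0 to 2, and the difference in drug effect 0 to 9. The difference in hypoxic change between BV2 and GL261 gave 12 to 17, that in normoxic level 25 to 30, and BV2 against BMDM with DMSO 8 to 9. The level of H1foo in BV2 against GL261 had a fitted log2 difference of 4.91, which ranged from 0 without BV2 normoxia replicate 1, the only one of these 4 libraries with counts, to 5.89 without BV2 normoxia replicate 2.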
